A study of Homo sapiens with 8 samples.

Results

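Entry into the cell cycle was examined through 10 genes: the D-type cyclins CCND2 and CCND3 with their kinases CDK4 and CDK6, cyclin E1 (CCNE1) with its kinase CDK2, the inhibitors CDKN1A and CDKN1B, the retinoblastoma gene RB1 and the transcription factor E2F1. They were chosen by name for their roles, with earlier results of these data known, and every annotated transcript of each gene in GENCODE version 44 was added up to a gene count. All 10 genes were among the 62639 genes with a transcript in the count table, 9 of them were among the 16474 genes with a count, and 6 were among the 7597 genes that passed the filter on low counts and were tested. The cells were MOLM-13, a human acute myeloid leukemia (AML) line carrying a doxycycline (dox)-inducible shRNA. In 4 libraries the shRNA was directed against PTBP1 (shPTBP1) and in 4 it was a scrambled control (shSCR, labelled wild type for PTBP1). All 8 biological replicates received dox for 9 days, and the vectors of both groups also carried mCherry and a truncated nerve growth factor receptor that is induced together with the shRNA. The study used 1 shRNA per group, so that loss of PTBP1 cannot be told apart from other differences between cells carrying the 2 constructs. Long-read nanopore cDNA sequencing gave a count per transcript and library.

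In a dividing cell, mitogens raise the D-type cyclins, which bind CDK4 or CDK6 and begin to phosphorylate RB1. Cyclin E with CDK2 completes that step, which frees E2F factors to switch on the genes of DNA replication. CDKN1A (p21, a p53 target) and CDKN1B (p27) bind and restrain these kinases, and p27 is removed in turn by the ubiquitin ligase that contains SKP2. Much of this control acts on proteins, through phosphorylation and degradation, which RNA counts do not show. PTBP1 is an RNA-binding protein that regulates splicing at pyrimidine-rich sequence.

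The libraries held 1528449 to 1613342 counts each, so that 3 counts, the limit allowed by a count of 0, correspond to 1.86 to 1.96 counts per 1000000 (CPM) in 1 library. PTBP1 itself was measured at 6.33, 9.91, 8.56 and 14.7 CPM after shPTBP1 and at 39.9, 57.3, 42.7 and 50.05 CPM after shSCR. It fell by 2.26 on the log2 scale ± 0.22 (SE, n = 4 per group, edgeR adjusted p = 7.18e-05), and its homolog PTBP2 rose by 6.36 ± 0.19 (edgeR adjusted p = 2.14e-10). PTBP2 had 185 to 199 counts per library after shPTBP1 and 1 to 4 after shSCR, so that the size of its rise rests on few control counts. Of 11 myeloid marker genes 8 passed the filter and none was at 0 in all libraries, with summed levels of 4879 to 5569 CPM after shPTBP1 and 4995 to 5188 CPM after shSCR. CSF1R was the only one of the 11 that was called different between the groups. The 4 T cell markers were at 0 in every library, and the summed B cell and erythroid markers reached at most 1.96 CPM. Of 4 epithelial or fibroblast markers 1 passed the filter and none was at 0 in all libraries, with summed levels of 9.51 to 15.1 CPM after shPTBP1 and 8.86 to 12.4 CPM after shSCR.

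None of the 6 tested members changed at an adjusted p under 0.05. With edgeR's quasi-likelihood test 0 of 6 were called lower and 0 of 6 higher, beside 3.19% of all tested genes called lower and 2.36% called higher. At an unadjusted p under 0.05 there were 2 of 6, CCND3 and RB1, both with lower means after shPTBP1, beside 19.2% of all tested genes. The 2 groups of 4 libraries overlapped for all 6, while they did not overlap for 12.7% of the tested genes. DESeq2, limma-voom and limma-trend also called 0 members in either direction. The median log2 fold change of the 6 was -0.15, against -0.00 for all tested genes, with 4 estimates below 0 and 2 above. The other 4 members, CCNE1, E2F1, CDK6 and CCND2, had too few counts for the test and are described by their counts.

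**Figure D1:**
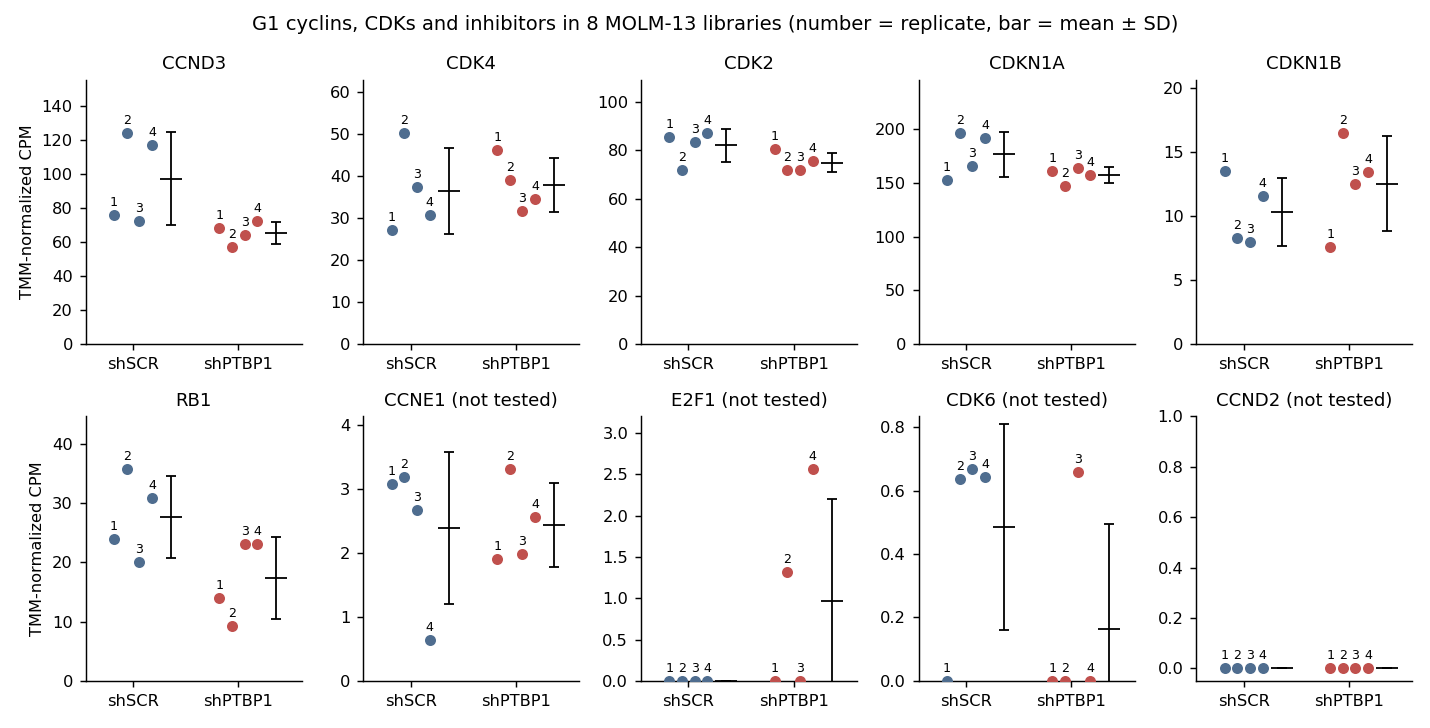
Level of each of the 10 genes in the 8 libraries, in CPM after TMM normalization, on axes that differ between genes. Points are libraries numbered by replicate and bars are the mean ± SD of 4 libraries. The points of shSCR and shPTBP1 overlap in every panel, and in that of CCND2 all are at 0. In CCND3, CDKN1A and RB1 shSCR replicates 2 and 4 lie highest.

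Cyclin D3 came closest to the threshold. CCND3 was measured at 68.3, 56.8, 63.9 and 72.3 CPM after shPTBP1, from 86 to 113 counts, and at 75.6, 124, 72.0 and 117 CPM after shSCR, from 108 to 195 counts. The 4 knockdown libraries lay close together, whereas shSCR replicates 2 and 4 lay far above shSCR replicates 1 and 3, and shSCR replicate 3 was just below the highest knockdown library. The means were 65.3 ± 6.66 and 97.1 ± 27.2 CPM (SD, n = 4), and the log2 fold change was -0.57 ± 0.17 (SE), a change of -32.7% with a 95% interval of -47.7% to -13.3% that is not adjusted over genes. The edgeR adjusted p was 0.0717, and an exact two-sided permutation test over the 8 libraries gave p = 0.0571, where the smallest value it can give is 0.0286. In bulk RNA, fewer cells in the phase that makes a transcript and less RNA per cell cannot be told apart.

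The estimate for CCND3 was below 0 in all 15 alternative settings, from -0.69 to -0.43, but the call depended on the setting. Adjusted p values ranged from 0.0107 to 0.194. They were under the threshold in 4 settings: 0.0107 without a filter on low counts, 0.0444 with a mean of at least 50 counts, 0.0422 without shSCR replicate 1 and 0.0356 without shSCR replicate 3. The last 2 of these leave out the shSCR libraries with the lowest CCND3. Without shSCR replicate 2 or replicate 4, the libraries with the highest CCND3, the log2 fold change was -0.43 and -0.47.

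**Figure D2:**
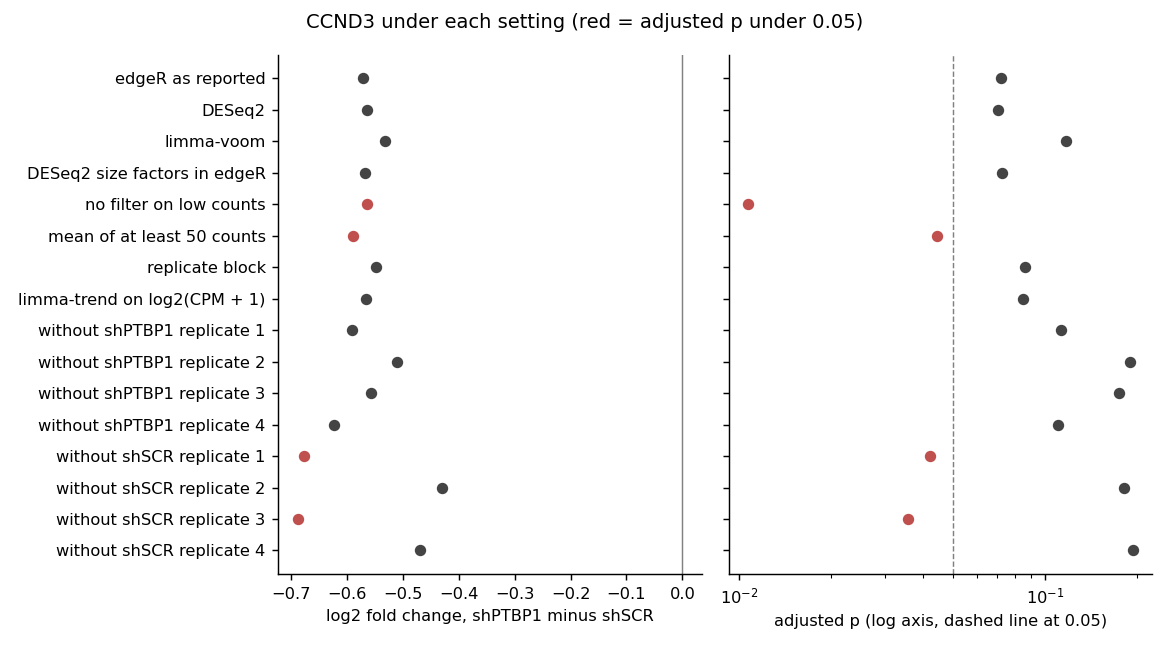
CCND3 under the reported fit and 15 alternative settings: log2 fold change of shPTBP1 minus shSCR on the left and adjusted p on a log axis on the right, with a dashed line at 0.05. All 16 estimates lie left of 0 and 4 of the 16 adjusted p values lie left of the line (red).

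Nearly all CCND3 counts were assigned to isoforms with the same annotated start, while the start of each read was not measured here. Of 1012 counts, 986 (97.4%, exact 95% interval 96.3% to 98.3%) fell on CCND3-203, the canonical isoform, and 993 came from the 2 isoforms that start within 100 nt of position 41941808 on chromosome 6. CCND3-215, which starts 108549 nt upstream, had 8 counts, 4 in each group. The mean share of CCND3-203 was 97.8 ± 1.05% after shPTBP1 and 97.0 ± 1.03% after shSCR (SD, n = 4, exact permutation test p = 0.257, adjusted over 6 members 0.771). The RefSeq promoter of that annotated start is shown because almost all CCND3 counts were assigned to isoforms that start there. It lies at chr6:41941759-41942058 (GRCh38.p14, minus strand), with 250 bases before the start and 50 after it:
CCND3 promoter: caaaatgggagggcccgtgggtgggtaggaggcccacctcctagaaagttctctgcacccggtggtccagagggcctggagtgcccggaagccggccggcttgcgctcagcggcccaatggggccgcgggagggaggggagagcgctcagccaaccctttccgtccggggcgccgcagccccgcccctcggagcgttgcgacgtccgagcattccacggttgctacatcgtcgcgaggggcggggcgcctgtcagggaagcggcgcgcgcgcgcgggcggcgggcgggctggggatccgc
The window is 73.7% G and C. The letters TGTGGT, a form of the RUNX motif, were not found in it on either strand. They occur in 13.1% of the 35116 RefSeq promoters of the same length and in 0 of the 11 promoters found for 8 of the members. Other forms of the motif were not searched. Binding of RUNX1, which the study profiled on chromatin of MOLM-13 cells, was not examined here. CCND2 and CDK2 had no entry, and the RB1 entry is an alternative start, so that the promoter of the main RB1 isoform was not searched.

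Cyclin D2 was not detected. CCND2 had 0 counts on all 8 of its listed transcripts in all 8 libraries, which limits it to 0.473 CPM over the shPTBP1 libraries and 0.480 CPM over the shSCR libraries. Of the CCND2 and CCND3 counts together, 0 of 404 and 0 of 608 were CCND2, which allows shares of up to 0.743% and 0.493%. These limits cover counting error only. The canonical transcript is 6493 nt for CCND2 and 2026 nt for CCND3, and the part of length was not tested. CCND1, the remaining D-type cyclin, is added here after its values were seen. It had 6, 0, 10 and 4 counts after shPTBP1 and 10, 8, 7 and 10 after shSCR and was too low to be tested.

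Of the partner kinases of cyclin D, CDK4 carried almost all counts. CDK4 was measured at 46.2, 39.0, 31.6 and 34.6 CPM after shPTBP1 and at 27.0, 50.3, 37.3 and 30.8 CPM after shSCR. The shSCR libraries spanned the whole range of the knockdown libraries. The log2 fold change was 0.06 ± 0.19 (SE), an interval of -21.5% to 38.4% (edgeR adjusted p = 0.910). Its sign turned when shPTBP1 replicate 1, shSCR replicate 1 or shSCR replicate 4 was left out. On the opposite strand TSPAN31 shares 1078 of the 1865 nt of CDK4-201 and held 8 to 22 counts per library on its own transcripts, and whether the authors' counting used strand is not given in the sources used here. CDK4-201 held 448 of 461 counts (97.2%).

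CDK6 had 1 count after shPTBP1 and 3 after shSCR, each in a different library, which is at or under 3 counts in both groups, so that no fold is given. Of those 4 counts 3 fell on CDK6-202, the canonical isoform of 11663 nt, and 1 on CDK6-203, a retained intron. On the opposite strand CDK6-AS1 shares 86 nt of CDK6-202. Its own transcripts held 7 to 14 counts per library after shPTBP1 and 8 to 11 after shSCR, and the unknown use of strand applies here too. The filter on low counts was passed by 236 of 714 protein-coding genes with a canonical transcript over 10000 nt (33.1%), against 38.1% of those between 2000 and 4000 nt, and the median count of a detected gene was 66 in the former and 121 in the latter. Among genes of up to 2000 nt, which include CDK4 with its canonical transcript of 1865 nt, 33.1% passed the filter and that median was 299. The part of length in the CDK6 counts was not tested. Among CDK4 and CDK6 counts together, CDK6 made up 0.510% on average after shPTBP1 (1 of 235) and 1.26% after shSCR (3 of 230), and the difference did not pass the test (exact permutation test p = 0.486, adjusted over 3 shares 0.729).

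Of the cyclin E and CDK2 pair, only the kinase was well measured. CCNE1 had 3, 5, 3 and 4 counts after shPTBP1 and 5, 5, 4 and 1 after shSCR. These are 15 counts in each group, a ratio of 0.987 with a 95% counting interval of 0.449 to 2.17, and a change inside that interval was not detectable at this depth. CDK2 was measured at 80.3, 72.0, 71.8 and 75.5 CPM after shPTBP1 and at 85.4, 71.9, 83.4 and 87.3 CPM after shSCR. All but shSCR replicate 2 of the control libraries lay above every knockdown library. The log2 fold change was -0.13 ± 0.09 (SE), with an interval of -20.6% to 5.17% (edgeR adjusted p = 0.501).

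CDK2-201 held 962 of 976 CDK2 counts (98.6%), with mean shares of 97.8 ± 0.647% after shPTBP1 and 99.2 ± 1.04% after shSCR (SD, n = 4). The other isoforms had 10 counts and 4, and the difference in the share of CDK2-201 did not pass the test (exact permutation test p = 0.0857, adjusted over 6 members 0.514). Among them CDK2-202, with 5 and 2 counts, lacks a coding exon of 102 nt, or 34 codons, that the main isoform contains. This exon is shown with the last 50 bases of the intron before it because CDK2 had the lowest permutation p of the 6 members examined. Runs of at least 6 pyrimidines in the intron are in capitals, and the exon is at chr12:55969475-55969576 and the intron stretch at chr12:55969425-55969474 (hg38, plus strand):
CDK2 intron before that exon: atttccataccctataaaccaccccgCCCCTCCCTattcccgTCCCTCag
CDK2 exon absent from CDK2-202: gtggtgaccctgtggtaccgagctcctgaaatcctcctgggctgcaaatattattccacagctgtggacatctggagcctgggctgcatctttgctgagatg
Skipping of this exon rested on 7 of 976 counts, and its libraries overlapped between the groups. How often such pyrimidine runs precede other exons was not counted, and binding of PTBP1 to these runs was not tested.

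Of the inhibitors, p21 had far more counts than p27, and its level per length was the highest of the 10 genes. CDKN1A was measured at 161, 147, 164 and 158 CPM after shPTBP1 and at 153, 197, 165 and 192 CPM after shSCR. shPTBP1 replicate 2 lay below every shSCR library, and shSCR replicate 1 lay below the other 3 knockdown libraries. The log2 fold change was -0.17 ± 0.09 (SE), with an interval of -22.1% to 1.56% (edgeR adjusted p = 0.328). CDKN1B was measured at 7.59, 16.5, 12.5 and 13.4 CPM after shPTBP1 and 13.5, 8.28, 8.002 and 11.5 CPM after shSCR, from 12 to 25 counts per library. The knockdown libraries held both the lowest and the highest of these values. Its log2 fold change was 0.27 ± 0.28 (SE), with an interval of -20.9% to 82.9% (edgeR adjusted p = 0.670). It was 0.11 without shPTBP1 replicate 2 and 0.45 without shPTBP1 replicate 1. CDKN1A made up 92.6 ± 2.31% of the counts of both inhibitors after shPTBP1 and 94.4 ± 1.80% after shSCR, a difference of -1.78 percentage points (exact permutation test p = 0.314, adjusted over 3 shares 0.729). The difference was -0.876 points without shPTBP1 replicate 2 and -2.75 points without shPTBP1 replicate 1.

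CDKN1A was the only member with a second isoform deep enough for the isoform test. CDKN1A-201 held 1969 of 2076 counts (94.8%) and CDKN1A-203 held 106 of the others. Both encode the same 492 nt of coding sequence. They differ in their first exon, which in CDKN1A-203 starts 4 nt earlier and runs 141 nt further into the intron. The donor sites that end these exons are shown because the later exons of both isoforms are joined in the same way. Each stretch holds 15 exon bases and 15 intron bases, with the first 2 intron bases in capitals, and they lie at chr6:36678784-36678813 and chr6:36678925-36678954 (hg38, plus strand):
CDKN1A-201 donor site: aggcactcagaggagGTgagagagcggcgg
CDKN1A-203 donor site: gtgtttctgcggcagGTgaatgacgggcgt
CDKN1A-203 made up 3.54%, 4.95%, 6.43% and 4.88% of the CDKN1A counts after shPTBP1 and 4.82%, 5.50%, 5.24% and 5.35% after shSCR. The shSCR shares lay within the range of the knockdown libraries. The mean share changed by -0.28 percentage points, and the diffSpliceDGE adjusted p was 1.00. Among all 5464 isoforms tested, 1.12% were called. A call required both an adjusted p under 0.05 and a mean share that moved by 10 percentage points or more. Of the members' isoforms 2 were tested and 0 were called by diffSpliceDGE, by limma's diffSplice or under any other setting tried, and 0 had an unadjusted p under 0.05 in diffSpliceDGE. CDKN1B-201 held 133 of 142 CDKN1B counts, and the isoform CDKN1B-205, which keeps an intron of 2081 nt, had 2 counts after shPTBP1 and 4 after shSCR.

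RB1, which the kinases of both cyclins phosphorylate, was measured at 13.9, 9.25, 23.0 and 23.0 CPM after shPTBP1 and at 24.0, 35.7, 20.01 and 30.8 CPM after shSCR, from 14 to 56 counts per library. The knockdown libraries fell into a low pair, replicates 1 and 2, and a pair inside the shSCR range. The log2 fold change was -0.67 ± 0.27 (SE), with an interval of -58.1% to -5.77% that is not adjusted over genes. The edgeR adjusted p was 0.193, and the exact permutation test gave p = 0.114. The estimate stayed below 0 in all 14 alternatives that gave a value, from -0.84 to -0.47, with adjusted p values from 0.126 to 0.381. RB1-201 held 279 of 280 counts.

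E2F1 was seen in 2 knockdown libraries alone. It had 0, 2, 0 and 4 counts after shPTBP1 and 0 in all 4 shSCR libraries, on E2F1-201, the 1 transcript that is listed. The 6 knockdown counts are 1.97 times the limit of 3 counts over the shSCR group, relative to library totals. This is not a lower bound, since the counting error of the 6 is left out. The other 2 knockdown libraries were at 0 as well and no single library was above 4 counts. The exact permutation test over the 8 libraries gave p = 0.429. E2F1 is known to be under the control of E2F factors, and its promoter was the only 1 of the 11 searched (which leave out that of the main RB1 isoform) in which any of the E2F letters TTTCCCGC, TTTCGCGC, TTTGCCGC or TTTGGCGC was found on either strand. These letters occur in 3.31% of all RefSeq promoters. The matches begin 33 and 20 bases before the start site and are in capitals in the stretch chr20:33686388-33686428 (GRCh38.p14, minus strand):
E2F1 promoter stretch: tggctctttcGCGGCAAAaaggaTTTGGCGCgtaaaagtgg

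Levels of different genes were compared per length, as CPM per kilobase of the canonical transcript. After shSCR the order of mean levels was CDKN1A (83.5), CCND3 (47.9), CDK2 (36.6), CDK4 (19.5), RB1 (5.79), CDKN1B (4.29), CCNE1 (1.22), CDK6 (0.0417), and E2F1 and CCND2 at 0. CCND3 ranged from 35.5 to 61.3 and CDK2 from 32.1 to 39.0, so that these neighbours overlapped, as did RB1 (4.20 to 7.48) and CDKN1B (3.32 to 5.61). CDKN1A, CDK4 and CCNE1 did not overlap their neighbours. After shPTBP1 the means of CDKN1A (74.3), CDK2 (33.4), CCND3 (32.2), CDK4 (20.3), CDKN1B (5.19) and RB1 (3.63) stood in nearly the same order, with CCND3 and CDK2 exchanged and CDKN1B and RB1 exchanged. Both exchanges were between genes whose libraries overlapped. A nanopore read can cover a whole molecule, so that dividing by length lowers the value of long transcripts.

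**Figure D3:**
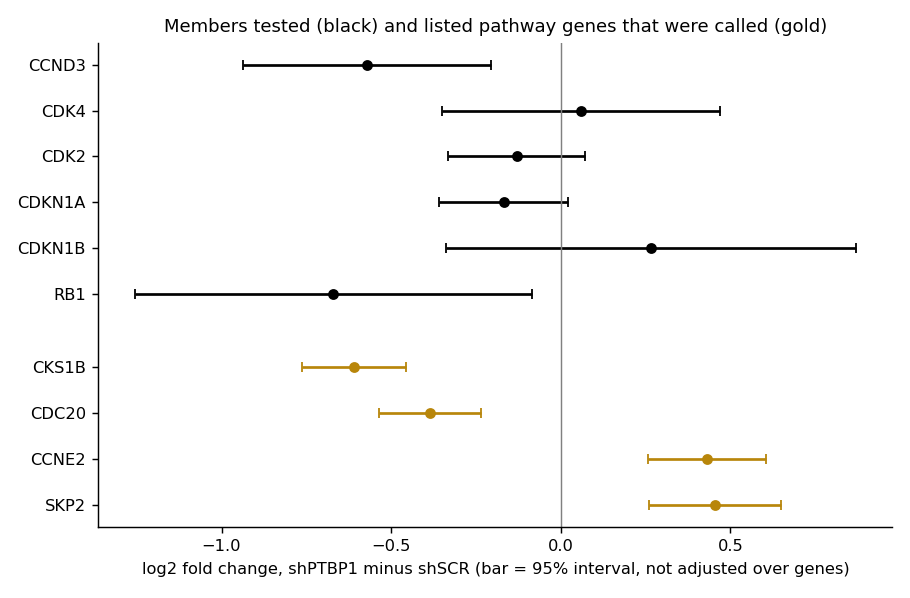
Log2 fold change of shPTBP1 minus shSCR for the 6 tested members (black) and for the 4 genes of the pathway list that were called (gold), with 95% intervals that are not adjusted over genes. The intervals of CCND3 and RB1 lie below 0 without a call, and those of CDK4, CDK2, CDKN1A and CDKN1B include 0.

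Other cell cycle genes were taken from a list of 94, most of them genes of the G1 to S transition and of S phase and 12 of them genes of G2 and M phase. Of the 94, 72 were tested, 11 of them G2 and M phase genes. After shPTBP1 2 of the 72 fell and 2 rose, 2.78% in each direction beside the 3.19% and 2.36% of all genes, and the median log2 fold change was 0.02. At an unadjusted p under 0.05 there were 15 of 72, beside 19.2% of all tested genes, a share that also stands beside the unadjusted counts of the groups that follow. Of the 24 S-phase genes that E2F factors control, all 24 were tested and 0 were called by edgeR, with 4 of 24 at an unadjusted p under 0.05. Their log2 fold changes lay between -0.28 and 0.31 with a median of 0.07. Of the 7 tested pocket proteins, E2F and DP genes 0 were called by edgeR, with 2 of 7 at an unadjusted p under 0.05. The inhibitors CDKN2A and CDKN2B were at 0 counts in every library.

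Of the 4 genes that were called, 3 act next to members. CCNE2, the other E-type cyclin and a partner of CDK2, was at 168, 151, 147 and 139 CPM after shPTBP1 and 111, 115, 106 and 117 CPM after shSCR, without overlap. It rose by 0.43 ± 0.08 on the log2 scale (SE, edgeR adjusted p = 0.00926). It had 935 and 703 counts, where CCNE1 had 15 and 15. SKP2, which recognizes p27 for degradation, was at 96.2, 112, 118 and 109 CPM after shPTBP1 and 79.3, 73.9, 82.7 and 82.8 CPM after shSCR, and rose by 0.45 ± 0.09 (edgeR adjusted p = 0.0127). CKS1B, the small subunit that SKP2 needs to bind p27, was at 192, 200, 235 and 213 CPM after shPTBP1 and 322, 320, 317 and 324 CPM after shSCR. It fell by 0.61 ± 0.07 (edgeR adjusted p = 0.000289), so that SKP2 and its cofactor moved in opposite directions. The remaining gene, CDC20, an activator of the ligase that ends mitosis, was at 740 to 811 CPM after shPTBP1 and 915 to 1112 CPM after shSCR and fell by 0.39 ± 0.07 (edgeR adjusted p = 0.00721). CCNE2, CKS1B and CDC20 were called in all 15 alternative settings and SKP2 in 14 of 15, the exception being the fit without shPTBP1 replicate 3 (adjusted p = 0.0512).

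**Figure D4:**
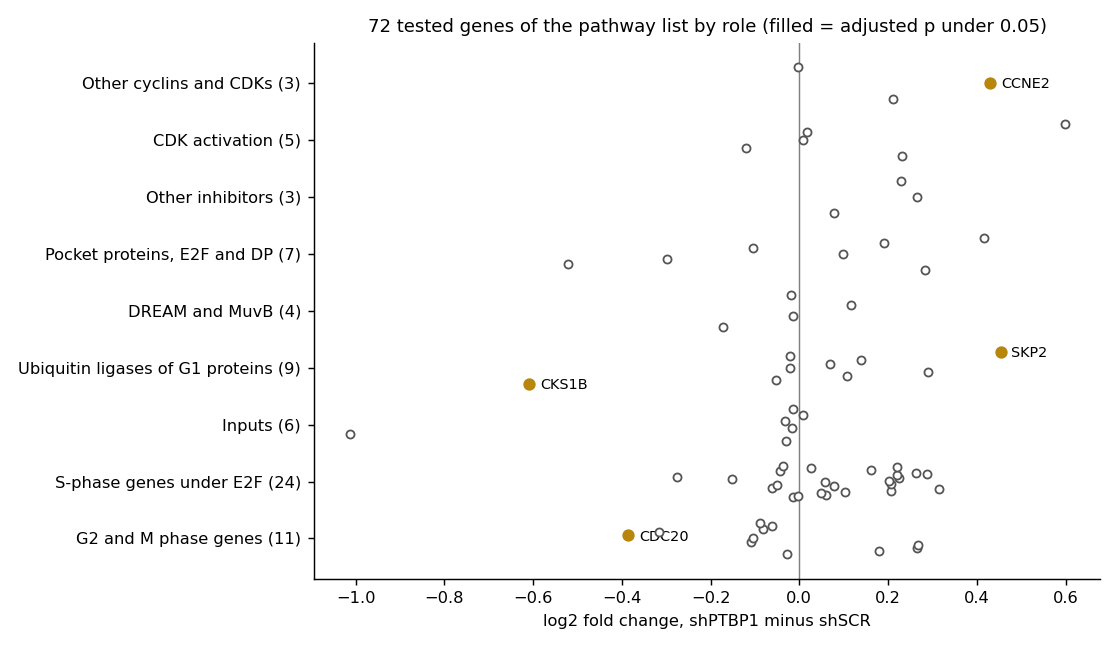
Log2 fold change of shPTBP1 minus shSCR for the 72 tested genes of the pathway list, grouped by role with the number tested in parentheses. Filled points are the 4 genes with an adjusted p under 0.05, CCNE2 and SKP2 to the right of 0 and CKS1B and CDC20 to the left, and the 24 S-phase genes lie between -0.28 and 0.31.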

How the data were processed

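RNA of 8 MOLM-13 cultures was sequenced by the authors as nanopore cDNA, mapped to hg38 with minimap2, filtered at a mapping quality above 50 and counted per annotated transcript with StringTie (versions and annotation are not given in the sources used here). The deposited counts are whole numbers without normalization. A second deposited table, named TPM, holds CPM, since its values equal count over library total per 1000000 within 1e-06. Transcripts were matched to GENCODE version 44 by identifier (252562 of 254070), and 1508 were left out. No column was without a sample.

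Gene counts were tested with edgeR 4.0.16 (TMM, filterByExpr with minimum count 10, quasi-likelihood test, Benjamini-Hochberg adjusted p under 0.05) and isoforms with diffSpliceDGE, in R 4.3.3. CPM of single genes in the text are TMM-normalized. Summed marker levels and the limits from 3 counts are relative to library totals, without TMM. Intervals are 95% and, for counts, cover counting error only. The SE of an edgeR fold change was calculated back from the test, as the absolute log2 fold change over the square root of its F value. Intervals of fold changes were built from that SE and the t distribution. Single values were compared by two-sided exact permutation tests. Alternatives were DESeq2 1.42.0, voom, trend (on log2 of CPM plus a pseudocount of 1) and diffSplice of limma 3.58.1, DESeq2's size factors, other filters, a replicate block, other minimum changes of an isoform share (0.05 and 0.2), protein-coding transcripts alone for shares, and leaving out each library. Scripts were tested on simulated data. Totals were 1528449 to 1613342 counts per library. Squared differences between libraries of a group were 2.05 to 3.60 times the counting variance (chi-square per gene), so no library was a copy. Correlations of same-numbered libraries, after group means were removed, were -0.0350 to 0.00917, so the numbers were not treated as pairs.

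The members and the pathway list were chosen with earlier results of these data known. Named were all members, pathway genes that were called, PTBP1, PTBP2, and isoforms of members that were called or had a mean share of at least 10% in a group. Isoforms below that share, marker genes, genes at 0 and overlapping genes were named after their values were seen. Sequences came from hg38 and from RefSeq (GRCh38.p14).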

Additional observations from a re-analysis of the deposited data

Results flagged for a closer look

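Among 34 groups of 4 libraries examined, 2 held a library far from the others, where chance gives about 1 in 20. CDC20 was at 811 CPM in shPTBP1 replicate 2 and at 740 to 748 CPM in the other knockdown libraries, a gap of 0.892 of the whole range. The share of CDK6 among CDK4 and CDK6 counts was 2.04% in shPTBP1 replicate 3 and 0 in the other knockdown libraries, and it rests on 1 count.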

How the results depend on the processing

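Members called lower were 0 as reported and 1, CCND3, without a filter on low counts and with a mean of at least 50 counts. Leaving out each library gave 0 to 1 member lower and 1 to 3 pathway genes higher (2 as reported), with 1 without shPTBP1 replicate 3. Members called higher stayed at 0 in 15 alternatives, and pathway genes called lower at 2 in 12. The log2 fold change of CDK4 turned to -0.050 without shPTBP1 replicate 1, -0.061 without shSCR replicate 1 and -0.010 without shSCR replicate 4, in a range from -0.061 to 0.26 over all libraries left out. The fit with a replicate block gave 0 members called lower, 0 higher and 0 isoforms, 2 pathway genes lower and 2 higher, and a CCND3 adjusted p of 0.0859 in edgeR. Over all genes 242 were lower and 179 higher, 186 and 137 with the replicate block, 157 and 157 with DESeq2, 272 and 129 with limma-trend, and 107 and 77 without shPTBP1 replicate 3, the lowest counts. The cause of these shifts was not tested. DESeq2 gave no adjusted p for CDKN1B, and CDKN1B and RB1 were not among the genes with a mean of at least 50 counts. The differences of the shares between paired members kept their sign or stayed at 0 in all 9 alternatives, but with single libraries left out they ranged from -2.75 to -0.876 percentage points for CDKN1A and from -1.26 to -0.491 for CDK6 (-0.751 as reported). CDK6 stood at -0.241 with protein-coding transcripts alone. Depth limits the members with few counts, CCNE1, CDK6, E2F1 and CCND2, most.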
